A study of Mus musculus with 6 samples.

Results

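The major histocompatibility complex (MHC) genes and the proteins that load peptides onto their products were examined in tdTomato-labelled cells of the NG2 lineage from mouse spinal cord. Members were the rows of the deposited count table whose symbol begins with H2-, apart from 1 row beginning H2-Ke, together with B2m, Tap1, Tap2, Tapbp, Tapbpl, Erap1, Nlrc5, Ciita and Cd74. This gave 52 of 38293 genes. Of the members, 46 lie on chromosome 17, and B2m, Tapbpl, Nlrc5, Erap1, Ciita and Cd74 are on chromosomes 2, 6, 8, 13, 16 and 18. By symbol they comprise 3 genes of the classical class I type (H2-D1, H2-K1 and the pseudogene H2-K2), 8 H2-Q, 6 H2-T and 14 H2-M genes, 1 other H2- gene (H2-Bl), the class I light chain B2m, 6 genes of class I loading and regulation, 11 class II genes and 2 genes of class II loading and regulation.

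Both groups were female mice of genotype NG2-CreERTM:Rosa-tdTomato/+:Cx3cr1GFP/+, with 3 libraries labelled Control and 3 labelled EAE (experimental autoimmune encephalomyelitis, an induced autoimmune attack on central nervous system myelin). In these animals an inducible Cre recombinase under NG2 (Cspg4) control switches on red tdTomato, and 1 Cx3cr1 allele, a gene of microglia and monocytes, carries green fluorescent protein. The NG2 gene is active in oligodendrocyte precursors and in vessel wall pericytes, so the live tdTomato-positive cells that were sorted hold both and their progeny; no gate on the green label is stated. All cords were dissociated in actinomycin D, a transcription inhibitor. The sources used here give no ages, no induction protocol or time for EAE and do not tie each library to 1 animal. The p-values therefore measure only the spread among these libraries, which may in part be technical.

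MHC class I molecules are a heavy chain paired with B2m, and they carry peptides from inside the cell to the surface for CD8 T cells and natural killer cells. The peptides are cut by the proteasome, pumped into the endoplasmic reticulum by the transporter Tap1-Tap2, trimmed by Erap1 and fitted to the heavy chain with the help of tapasin (Tapbp). Class II molecules present peptides from the endosome to CD4 T cells and are at home in dendritic cells, macrophages and B cells. Resting cells of the central nervous system parenchyma hold little of either class, and interferons induce class I through Nlrc5 and class II through Ciita, the master regulators of the respective genes.

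Proximal promoters of class I heavy chain genes carry a compact set of elements, shown here to place the members' regulatory sequence beside their levels. Letters were taken from RefSeq windows of 250 bases before to 50 after the start on GRCm38.p6, which held 35 of the 52 members, 12 of them among the genes called below. The capitals mark, on either strand, GGGGATTCC (the enhancer A element bound by NF-kappaB), TTTC, any 2 bases and TTTC (an interferon-stimulated response core), TTTCNCTTC (the related form seen in class I promoters, which can overlap the former), TGATGAC (the X2 element), CTGATTGG (letters of the class II Y box, whose other strand reads CCAATCAG) and AG, any base, AAC, any base and GATG (the class II X1 element). In H2-D1, H2-K1, H2-Q7 and H2-T23 the CTGATTGG match was on the other strand. Whether it is the Y box of those genes was not tested. The lines of H2-D1, H2-K1 and H2-Q7 also hold the shorter ATTGG, left in lower case. The motifs were picked with these promoters in view. Each line runs 5′ to 3′ on the strand of the gene.
H2-D1 (chr17:35262911-35263060, plus strand): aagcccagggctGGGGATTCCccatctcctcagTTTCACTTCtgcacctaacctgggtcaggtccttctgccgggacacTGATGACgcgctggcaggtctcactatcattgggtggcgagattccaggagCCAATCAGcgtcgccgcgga
H2-K1 (chr17:34000332-34000470, minus strand): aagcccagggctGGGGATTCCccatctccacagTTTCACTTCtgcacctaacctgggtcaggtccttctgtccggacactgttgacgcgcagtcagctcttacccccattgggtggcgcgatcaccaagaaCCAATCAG
H2-Q7 (chr17:35439010-35439154, plus strand): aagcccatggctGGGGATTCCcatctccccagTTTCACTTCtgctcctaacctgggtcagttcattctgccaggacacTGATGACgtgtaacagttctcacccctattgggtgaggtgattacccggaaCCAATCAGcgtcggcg
H2-T23 (chr17:36032734-36032837, minus strand): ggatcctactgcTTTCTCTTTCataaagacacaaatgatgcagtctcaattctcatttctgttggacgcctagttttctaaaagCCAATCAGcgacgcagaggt
B2m (chr2:122147536-122147569, plus strand): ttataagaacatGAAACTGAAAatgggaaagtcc
H2-Aa (chr17:34287855-34287905, minus strand): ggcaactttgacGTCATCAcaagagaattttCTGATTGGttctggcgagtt
H2-Eb1 (chr17:34305763-34305824, plus strand): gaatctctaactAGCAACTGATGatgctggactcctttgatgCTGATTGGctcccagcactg

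The enhancer A letters occurred in 4 members, H2-D1, H2-K1, H2-Q6 and H2-Q7, against 0.296% of 27025 genes in the table. The class I interferon form was in 8 members (2.83% of all genes) and the response core in 4, namely B2m, Erap1, H2-T22 and H2-T23 (3.99% of all genes). The letters CTGATTGG were found in 19 members against 4.7% of all genes, and 8 of these 19 are H2-M genes of which none passed the filter on low counts. X2 letters were in 8 members (3.73% of all genes), and X1 letters in H2-DMb1, H2-Eb1 and H2-Eb2 (0.359% of all genes). No element was in all 12 called members of the table: enhancer A was in 4, the class I interferon form in 6, X2 in 6, CTGATTGG in 7 and the response core in 3. H2-M3, tested and not called, and H2-M2, not tested, also held the class I form and X2. The heavy chain genes are paralogs, so their shared letters are not independent, and a match describes a sequence and not a bound site.

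Total counts ran from 22141522 to 28734798 reads per library. On the first principal component EAE replicate 3 lay away from the other EAE libraries (100.2 against 44.1 and 38.3) and Control replicate 3 from the other Controls on the second (-80.5 against 48.2 and 46.4). Sorted cells carried markers of both NG2 lineages. The summed level of 9 precursor markers was 2899 to 4306 CPM (counts scaled to the TMM library size) in Control and 4781 to 5749 CPM in EAE. Only Vcan and Gpr17 of the 9 were called, both higher (22.2%, beside 2.82% of all tested genes), and 5 had a log2 fold change above 0. Cspg4, the NG2 gene itself, was at 356, 375 and 347 CPM in Control replicates 1, 2 and 3. In EAE replicates 1, 2 and 3 it was at 169, 160 and 290 CPM, without a call (adjusted p = 0.0764). The 9 pericyte and smooth muscle markers summed to 3605 to 6228 CPM in Control and 531 to 953 CPM in EAE. Endothelial markers, of a cell type outside the NG2 lineage, summed to 1086 to 1698 CPM in Control and 229 to 294 in EAE. The largest sum was that of 8 mature oligodendrocyte markers, at 29020.3 to 34233.5 CPM in Control and 24786 to 43958 in EAE, none of them called. Markers of astrocytes summed to 23.9 to 34.1 CPM in Control and to 47.0, 50.3 and 96.7 in EAE replicates 1, 2 and 3, highest in replicate 3 as most members were. Of these 5 markers only Gfap was called (8.81-fold higher, adjusted p = 0.00876), and its call was lost in 1 of the 6 fits that left out 1 library (0.0512). The log2 fold change was above 0 for 4 of the 5 and ran from -1.07 to 3.14. The part of these cell types in the members' levels was not tested. In bulk samples fewer cells of a type and less RNA per cell cannot be told apart.

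Cells from mice with EAE were compared with those from Control mice. Of the 52 members, 10 had no read in any library, 12 more had too few reads to test, and 30 were tested. Higher levels in EAE were called for 17 of the 30 (adjusted p under 0.05 by edgeR's quasi-likelihood test with Benjamini-Hochberg adjustment over all 16966 genes tested), and none was called lower. Over all tested genes 2.82% were called higher and 4.33% lower (7.14% in either direction). The log2 fold change was above 0 for 30 of 30 members and 50.3% of all tested genes, and every EAE library lay above every Control library for 23 members and 13.4% of all tested genes. The filter bears on this count, since 8 tested members (Cd74, Ciita, H2-Aa, H2-Ab1, H2-Eb1, H2-Bl, H2-Q2 and H2-T-ps) reached it only through EAE. With no filter 14 of 42 members were called, all higher, beside 1272 of all genes (501 higher). All genes with a read in any library were then tested, a larger set than the 16966. The share called over that set is not given here. Cd74, H2-Aa, H2-Ab1, H2-Q7, H2-T23 and Tap1 lost their calls, and H2-DMa, H2-T10 and Tapbp gained one. Among the 22 that reached the filter in both groups, 13 were called higher, with a median log2 fold change of 2.60 beside 0.004 over all tested genes. By class, the call of higher was made for 2 of 3 tested genes of the classical type, 7 of 7 H2-Q, 2 of 5 H2-T and 0 of 1 H2-M genes, B2m, 2 of 6 class I loading and regulatory genes, 2 of 4 class II genes and 1 of 2 class II loading and regulatory genes.

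**Figure D1:**
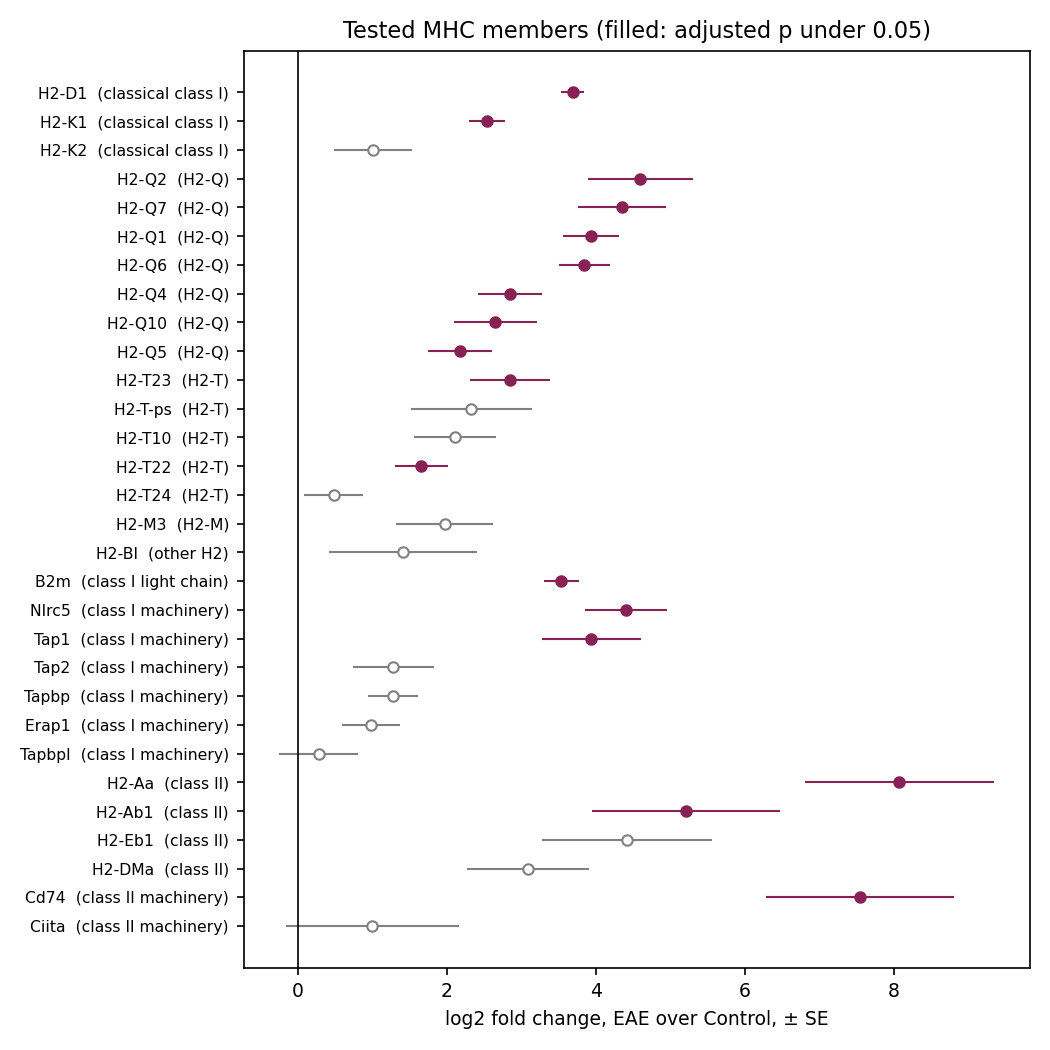
Log2 fold change of EAE over Control for the 30 tested members, ± SE from the edgeR fit, grouped by class on the vertical axis. Filled points passed the adjusted p of 0.05; all 30 lie to the right of 0, from 0.28 for Tapbpl to 8.08 for H2-Aa.

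H2-D1, a classical heavy chain for CD8 T cells (ENSMUSG00000073411, chromosome 17, 35262730 to 35267499, GRCm38), stood at 76.2, 70.6 and 63.6 CPM in Control replicates 1, 2 and 3 and at 878, 876 and 957 CPM in EAE replicates 1, 2 and 3. The 3 EAE libraries were nearly level with each other and far above every Control. The gene had the smallest adjusted p of all tested genes (5.17e-05; log2 fold change 3.69 ± 0.156, SE here and below). H2-K1, the other classical heavy chain (chromosome 17, 33996017 to 34000347), was at 58.4, 74.6 and 83.9 CPM in Control and 357, 347 and 561 in EAE (log2 fold change of 2.54 ± 0.236, adjusted p = 0.00105). Its groups did not overlap either, and EAE replicate 3 was the highest. H2-K2, annotated as a transcribed pseudogene, did not pass the test (1.39 to 3.49 CPM in Control and 3.02 to 6.22 in EAE, adjusted p = 0.335).

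Per kilobase of gene length, H2-D1 and H2-K1 were level in Control, at 27.2 ± 2.43 and 27.7 ± 4.94 CPM per kb (mean ± SD, n = 3), and apart in EAE, at 350 ± 17.9 and 162 ± 46.4. The ratio of H2-D1 to H2-K1 was 1.32, 0.957 and 0.767 in the Control libraries and 2.49, 2.55 and 1.72 in the EAE libraries, so the groups did not overlap. An exact 2-sided permutation test gave p = 0.1, the smallest that groups of 3 allow (adjusted p = 0.13 over 13 such within-library ratios). H2-D1 supplied 29.5% to 37.6% of the summed heavy chain level per kilobase in Control and 45.6% to 59.6% in EAE. H2-T genes went from 14.2% to 19.4% down to 4.34% to 11.0% of that sum, again with no overlap (exact permutation p = 0.1). The share of H2-Q genes overlapped between groups, at 6.69% to 14.9% and 11.4% to 15.4% (exact permutation p = 0.4).

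**Figure D2:**
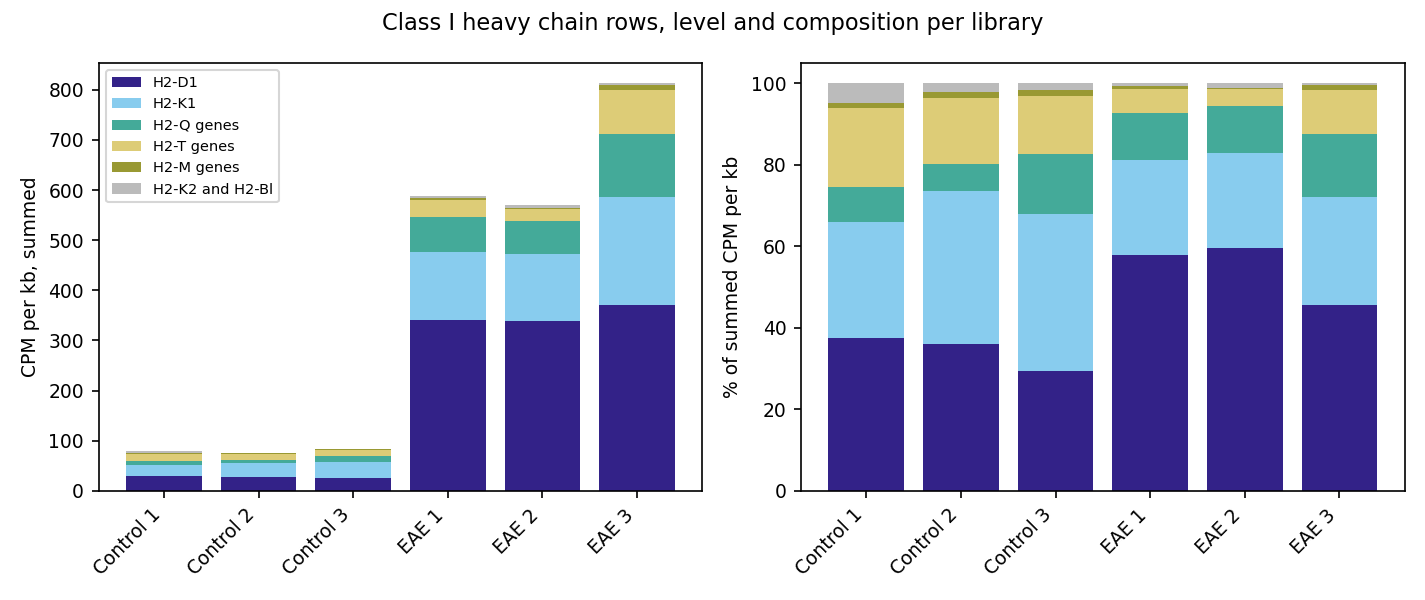
Summed level of all class I heavy chain rows in each library, in CPM per kb (left) and as percent of that sum (right), split by gene or gene group. Each bar is 1 library; the sum was 76.2 to 83.8 CPM per kb in Control and 570.1 to 812.7 in EAE, and the H2-D1 share was larger in every EAE library.

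Reads of single heavy chain genes are uncertain, because close copies share sequence. Of all windows of 50 bases along its transcripts, H2-D1 shared 12.8% with another gene, H2-K1 9.6%, the 7 tested H2-Q genes 15.0% to 36.4% and H2-T10 and H2-T22 32.9% and 34.5%, mostly with each other. B2m, Nlrc5, Cd74, H2-Ab1 and H2-Eb1 shared none. With all class I heavy chain rows summed to 1 feature, an alternative chosen after seeing the data, the sum rose with a log2 fold change of 3.10 ± 0.200 (adjusted p = 0.000507).

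B2m, the light chain that every class I heavy chain needs for surface display (chromosome 2, 122147686 to 122153083), was at 354.5, 283 and 304 CPM in Control and 3034, 3251 and 4695 in EAE. No EAE library came near the Control range (ratio of mean CPM 11.7), and the adjusted p of B2m was second only to that of H2-D1 (log2 fold change 3.54 ± 0.230, adjusted p = 0.000508). Per kilobase, B2m exceeded the summed heavy chains 4.22 to 5.24 times in Control and 6.0 to 6.72 times in EAE. These ranges did not overlap (exact permutation p = 0.1).

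**Figure D3:**
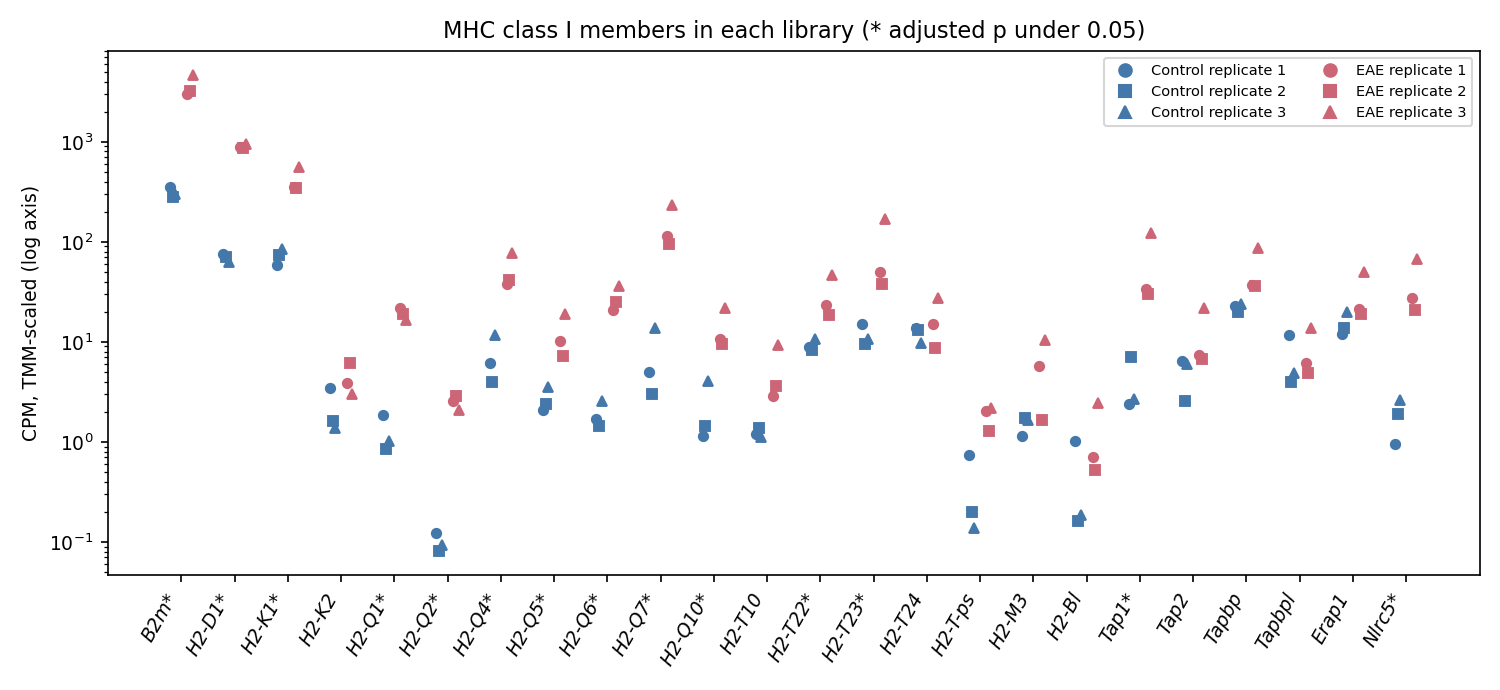
CPM of the 24 tested class I members in each library, on a log axis, with Control in blue, EAE in red and a marker shape per replicate. The groups are apart for all members marked with an asterisk, EAE replicates 1 and 2 sit close together for most genes, and EAE replicate 3 lies above them except at H2-K2, H2-Q1 and H2-Q2.

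The H2-Q genes encode non-classical class I chains, of which the Qa-2 antigen is made by H2-Q6 and H2-Q7. All 7 tested H2-Q genes rose, and H2-Q3, a pseudogene, had no read. H2-Q7 (chromosome 17, 35439155 to 35443773) was at 5.01, 3.02 and 13.7 CPM in Control and 114, 95.1 and 233 in EAE (log2 fold change of 4.35 ± 0.592, adjusted p = 0.00416). Both groups were spread, with replicate 3 highest in each, but they did not overlap. The ratio of mean CPM was 20.3, and 14.4 without EAE replicate 3. H2-Q6 rose from 1.69, 1.45 and 2.59 to 20.7, 25.2 and 36.4 CPM (adjusted p = 0.00101) and H2-Q4 from 6.17, 3.98 and 11.6 to 37.8, 41.6 and 76.5 CPM (adjusted p = 0.00648).

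H2-Q1 stood at 1.85, 0.845 and 1.02 CPM in Control and 21.8, 18.9 and 16.4 in EAE (log2 fold change of 3.94 ± 0.376, adjusted p = 0.00115). H2-Q2 held only 3, 2 and 2 reads in the Control libraries and 70, 77 and 63 in EAE (log2 fold change of 4.6 ± 0.702, adjusted p = 0.00652). In both genes EAE replicate 3 was the lowest EAE library, unlike in the other 5 H2-Q genes. H2-Q10, known as a secreted class I chain of liver, was at 1.15, 1.45 and 4.07 CPM in Control and 10.6, 9.58 and 21.6 in EAE (adjusted p = 0.0244). H2-Q5, annotated as a polymorphic pseudogene, was at 2.10, 2.37 and 3.52 against 10.1, 7.27 and 18.8 CPM (adjusted p = 0.0189). Calls of H2-Q5 and H2-Q10 were lost in 3 and 4 of the 6 fits that left out 1 library (adjusted p up to 0.0923 and 0.103), whereas the other 5 H2-Q genes kept theirs in all 6.

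Among the H2-T genes, H2-T23 and H2-T22 rose. H2-T23 encodes Qa-1, which presents leader peptides of other class I chains to the CD94-NKG2 receptors of natural killer cells. It was at 15.0, 9.54 and 10.7 CPM in Control and 49.5, 37.5 and 168 in EAE (log2 fold change of 2.85 ± 0.542, adjusted p = 0.0161), with replicate 3 far above the other EAE libraries. The ratio of mean CPM was 7.22, and 3.70 without EAE replicate 3. H2-T22, a ligand of certain gamma delta T cell receptors, was at 8.96, 8.21 and 10.8 against 23.3, 18.6 and 46.8 CPM (adjusted p = 0.0251), and 29.4% of its exonic bases overlap another gene. Leaving out any 1 Control library ended the call of H2-T23 (largest adjusted p 0.0872). The same held for H2-T22, which also needed EAE replicate 1 (largest adjusted p 0.109). H2-T10, close in sequence to H2-T22, did not pass (adjusted p = 0.0561), nor did the pseudogene H2-T-ps (0.139). H2-T24 was at 13.9, 13.2 and 9.81 CPM in Control and 15.2, 8.76 and 27.3 in EAE, so the groups overlapped (adjusted p = 0.579). The log2 fold change of H2-T24 was 0.48, and -0.02 without EAE replicate 3. H2-T3 had 8 reads in Control and 3 in EAE and was not tested.

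Only 1 of the 14 H2-M genes was tested. H2-M3, which presents N-formylated peptides, was at 1.15, 1.73 and 1.67 CPM in Control and 5.71, 1.64 and 10.4 in EAE, where replicate 2 lay within the Control range (adjusted p = 0.117). Without EAE replicate 2 it was called (adjusted p = 0.0303). H2-M1, H2-M9, H2-M10.2, H2-M10.3, H2-M10.4 and H2-M10.5-ps1 had no read, and H2-M2, H2-M5, H2-M6-ps, H2-M10.1 and H2-M11 had 14 or fewer each. H2-M10.5 held 1 read in Control and 25 in EAE, a ratio of 21.0 (95% exact interval 3.45 to 864.2 for counting error alone), and H2-M10.6 held 6 and 46. H2-Bl, annotated as a polymorphic pseudogene, did not pass (adjusted p = 0.500).

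Of the 6 class I loading and regulatory genes, Nlrc5 and Tap1 rose. Nlrc5, the transactivator of class I genes (chromosome 8, 94434356 to 94527272), was at 0.945, 1.89 and 2.64 CPM in Control and 27.7, 20.8 and 67.4 in EAE (log2 fold change of 4.41 ± 0.553, adjusted p = 0.00287). No EAE library came near the Control range, and the call held in all 6 fits that left out 1 library. Tap1, the first subunit of the peptide transporter (chromosome 17, 34187553 to 34197225), was at 2.38, 7.12 and 2.68 CPM in Control and 34.0, 30.4 and 124 in EAE (log2 fold change of 3.94 ± 0.665, adjusted p = 0.00978). Leaving out Control replicate 1 or 3 ended its call (largest adjusted p 0.0653), and the ratio of mean CPM, 15.4, was 7.93 without EAE replicate 3.

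Tap2, the partner subunit, was at 6.37, 2.54 and 6.02 CPM in Control and 7.33, 6.78 and 22 in EAE and did not pass (adjusted p = 0.229). The groups did not overlap, by a narrow margin. The Tap1 to Tap2 ratio per kilobase was 0.258, 1.94 and 0.308 in Control and 3.20, 3.10 and 3.87 in EAE (exact permutation p = 0.1), although 18.5% of the exonic bases of Tap2 lie in other genes. Tapbp, the tapasin that bridges transporter and heavy chain, was at 22.8, 20.0 and 23.7 against 37.2, 36.5 and 87.3 CPM and just missed the threshold (adjusted p = 0.0576). Other genes cover 29.0% of its exonic bases. Tapbp was called without EAE replicate 2 (0.0413). Erap1, the trimming peptidase, at 11.9, 13.9 and 19.9 against 21.5, 18.9 and 49.4 CPM, had an adjusted p of 0.193. Tapbpl, a tapasin-like editor of peptides, was at 11.6, 3.94 and 4.86 against 6.15, 4.92 and 13.8 CPM with overlapping groups (adjusted p = 0.835), and its log2 fold change of 0.28 was -0.28 without EAE replicate 3.

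In class II, the alpha and beta chains H2-Aa and H2-Ab1 and the invariant chain Cd74, which occupies the peptide groove until the endosome, were called higher. All 3 reached the filter on low counts only through EAE, and none was called with no filter (adjusted p = 0.0776 for H2-Aa, 0.253 for H2-Ab1 and 0.112 for Cd74). Cd74 was read 0, 16 and 0 times in the Control libraries (replicates 1 to 3) and 794, 260 and 2687 times in EAE, or 29.3, 9.69 and 89.3 CPM (log2 fold change 7.55 ± 1.26, adjusted p = 0.0108). H2-Aa had 0, 7 and 0 reads in Control and 322, 188 and 1938 in EAE (11.9, 7.00 and 64.4 CPM; adjusted p = 0.00738). Control replicate 2 thus held every Control read of both genes, and their folds are poorly defined. H2-Ab1 had 1, 27 and 28 reads in Control and 431, 83 and 2125 in EAE (15.9, 3.09 and 70.6 CPM; log2 fold change 5.21 ± 1.26, adjusted p = 0.0457). The call of H2-Ab1 survived only the fit without EAE replicate 2 among the 6 that left out 1 library (adjusted p up to 0.144), and it was lost with the replicate number as a block (0.0872). Without Control replicate 1 or 3 neither Cd74 nor H2-Aa was called (largest adjusted p 0.0607 and 0.0588).

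H2-Eb1, a second beta chain, and H2-DMa, a chain of the peptide exchange factor H2-DM, just missed the threshold (adjusted p = 0.0535 and 0.0594). H2-Eb1 was at 0.904, 0.201 and 0 CPM in Control and 6.34, 2.01 and 15.8 in EAE, and H2-DMa at 1.27, 0.483 and 1.11 against 3.13, 2.79 and 18.5. Both sets of libraries were apart without overlap. The partner chain H2-DMb1 had no read in Control and 31, 0 and 176 in EAE replicates 1, 2 and 3, a mean at least 18.3-fold higher than the floor of 3 reads per library. Its copy H2-DMb2, which shares 24.8% of its windows with other genes, had 1 read in Control and 82 in EAE, none of them in EAE replicate 2 (ratio 69.0, 95% exact interval 12.1 to 2759.8). Neither H2-DMb gene was tested. H2-Oa and H2-Ob, which restrain H2-DM, had 7 and 14 reads in Control and 22 and 3 in EAE. H2-Eb2 and the pseudogenes H2-Ea-ps and H2-Pb had no read. Ciita, the class II transactivator, was at 0.781, 2.62 and 0 CPM in Control and 1.33, 1.94 and 3.56 in EAE, with overlapping groups (log2 fold change 1.00 ± 1.16, adjusted p = 0.712).

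**Figure D4:**
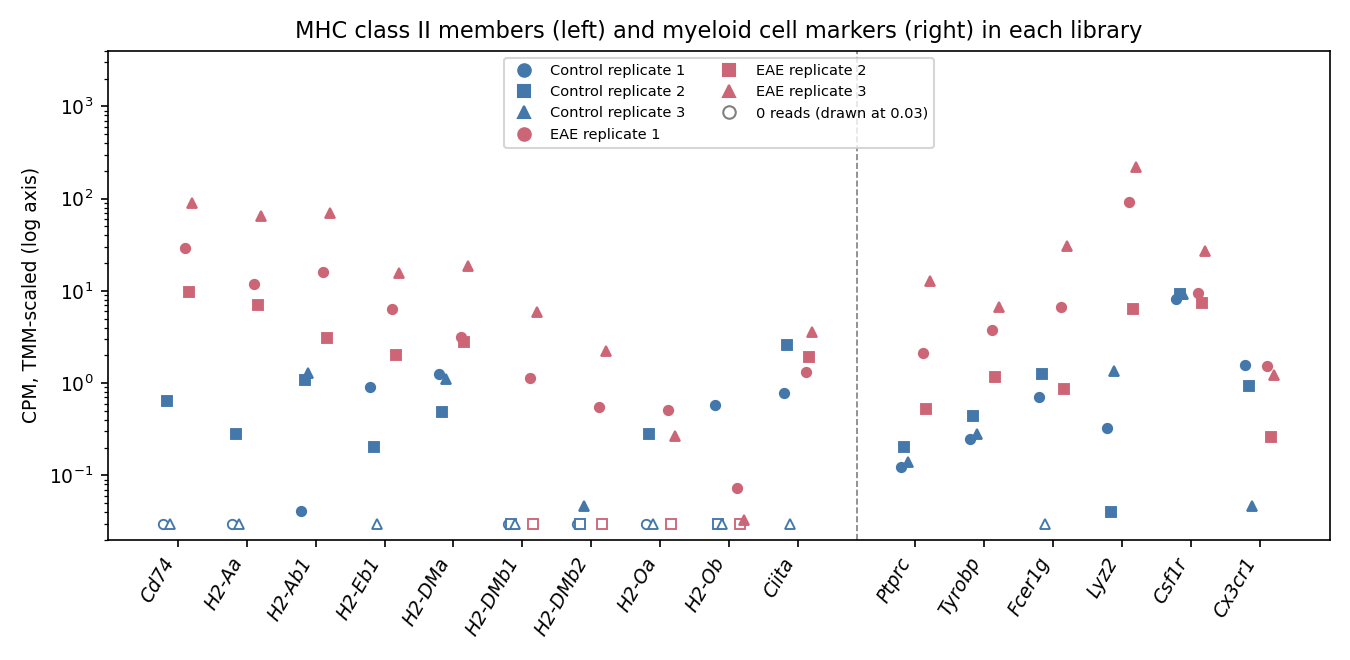
CPM of 10 class II members (left of the dashed line) and 6 myeloid markers (right) in each library, on a log axis, with open symbols for 0 reads. Among EAE libraries Cd74, H2-Aa and H2-Ab1 follow the order replicate 3, replicate 1, replicate 2, as do Ptprc, Tyrobp, Fcer1g, Lyz2 and Csf1r. Cx3cr1 and Ciita do not. The order is not particular to these genes, since class I members such as H2-D1, H2-K1, H2-T23 and Tap1 share it.

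Some markers of microglia and macrophages were higher in EAE beside class II, and others were not. Of 14 tested, 3 were called higher (Lyz2, Ptprc and Tyrobp, 21.4%) and none lower, beside 2.82% and 4.33% of all tested genes. These 3 reached the filter on low counts only through EAE. The Control libraries held 8, 1 and 29 reads of Lyz2, 3, 5 and 3 of Ptprc, and 6, 11 and 6 of Tyrobp. The summed level over 16 genes was 25.8 to 35.2 CPM in Control and 163, 35.7 and 389 CPM in EAE replicates 1, 2 and 3, of which Lyz2 alone gave 90.8, 6.30 and 219 CPM in EAE. Lyz2, the lysozyme of macrophages, was at 0.329, 0.0402 and 1.34 CPM in Control and 90.8, 6.30 and 219 in EAE (adjusted p = 0.0169), and Ptprc, the common leukocyte antigen CD45, at 0.123, 0.201 and 0.139 against 2.10, 0.522 and 12.9 CPM (adjusted p = 0.0376). Tyrobp, a signalling adaptor of myeloid cells, was called too (adjusted p = 0.0267). The calls of Tyrobp and Ptprc were each kept in only 1 of the 6 fits that left out 1 library. That of Lyz2 was kept in 3 of the 6 (adjusted p up to 0.150 over these genes). Ms4a7 was the 1 myeloid marker with no read in Control, and Cx3cr1 was at 0.0463 to 1.56 CPM in Control and 0.261 to 1.55 in EAE. The microglial genes Tmem119 and P2ry12 had lower means in EAE without a call. Tmem119 was at 1.29 to 2.01 CPM in Control and 0.261 to 0.847 in EAE (adjusted p = 0.255), and P2ry12 at 0.648 to 6.29 and 0.186 to 2.96 CPM (adjusted p = 0.772). Dendritic cell markers summed to 14.9 to 24.2 CPM in Control and 7.68 to 11.3 in EAE with Batf3 at 0, but Zbtb46 alone gave 13.6 to 23.1 CPM of the Control sum and 3.49 to 8.14 of the EAE sum. Zbtb46 was called lower (adjusted p = 0.0376), a call kept in 1 of the 6 fits that left out 1 library. Among the others Itgax was at 0.161 to 0.879 CPM in Control and 1.55 to 1.89 in EAE without a call (adjusted p = 0.186), and Ccr7 had no read in Control and 37 in EAE, all in replicate 3. B cell markers summed to 5.35 to 12.6 and 1.33 to 2.58 CPM, of which Cr2 gave 4.87 to 12.6 and 0.698 to 2.47, while Cd79a had 8 reads in Control and 31 in EAE. Cr2 was called lower (adjusted p = 0.0451), also in 1 of those 6 fits. T cell markers summed to 0.443 to 1.11 CPM in Control and 0.559 to 14.1 in EAE. None of the 8 T cell markers was tested. Cd3d, Cd3e, Cd3g and Cd4 of T cells had no read in Control, and Cd3e had 283 reads in EAE (12, 0 and 271 in replicates 1, 2 and 3). Cd8a went the other way, with 19 reads in Control, all in replicate 3, and none in EAE. Trac and Cd2 had 17 reads each in Control and 70 and 33 in EAE. The part of these cells in the class II reads was not tested.

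The classical heavy chains and B2m differed less between EAE libraries. H2-D1 was at 876 CPM in EAE replicate 2, where the macrophage markers summed to 35.7 CPM, and at 878 and 957 CPM where they summed to 163 and 389. The part of macrophages in the class I levels was not tested. EAE replicate 1 over replicate 2 was 1.00 for H2-D1, 1.03 for H2-K1 and 0.933 for B2m, beside 3.02 for Cd74, 5.13 for H2-Ab1 and 1.69 for H2-Aa. The classes overlapped in this ratio. It was 3.15 for H2-Eb1, 1.12 for H2-DMa and 0.685 for Ciita, and ran from 0.622 (H2-K2) to 3.48 (H2-M3) over all tested class I members.

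Members also differed in how far EAE replicate 3 exceeded the mean of replicates 1 and 2. The ratio was 0.805 for H2-Q1, 1.09 for H2-D1, 1.49 for B2m and 1.59 for H2-K1, then 2.78 for Nlrc5, 3.84 for Tap1 and 3.85 for H2-T23, and 4.59, 6.83 and 7.44 for Cd74, H2-Aa and H2-Ab1. Replicate 3 was the highest EAE library for 27 of 30 tested members, against 39.9% of all tested genes and 68.2% of the 478 called higher. H2-D1, B2m, H2-K1, H2-Q1, H2-Q2, H2-Q4, H2-Q6, H2-Q7 and Nlrc5 kept their call in all 6 fits that left out 1 library, EAE replicate 3 included.

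Of 19 tested genes of class I peptide supply, folding and regulation outside the members, constitutive proteasome subunits included, 2 rose (10.5%, beside 2.82% of all tested genes) and none fell, with a median log2 fold change of 0.43. Psmb8, a catalytic subunit of the immunoproteasome encoded beside Tap1, was at 4.89, 2.98 and 5.60 CPM in Control and 24.1, 18.1 and 91.1 in EAE (log2 fold change of 3.31 ± 0.617, adjusted p = 0.0151). Hspa5, a general chaperone of the endoplasmic reticulum, rose 1.76-fold (adjusted p = 0.0226). Psmb9, the immunoproteasome gene next to Tap1, was at 3.42 to 7.73 CPM in Control and 9.91 to 46.5 in EAE without a call (adjusted p = 0.0703). Calreticulin (Calr), the lectin chaperone that holds heavy chains, was at 116 to 128 and 160 to 181 CPM (adjusted p = 0.0709), and the interferon regulatory factor Irf1 at 7.24 to 8.38 and 12.6 to 50.2 CPM (adjusted p = 0.0918).

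In interferon signalling, Irf9, a transcription factor of the type I response, rose 2.89-fold (adjusted p = 0.0417), and Ifnar1, a type I receptor chain, fell by 0.92 on the log2 scale (adjusted p = 0.00714). Of 15 tested class II pathway genes, 2 rose (13.3%, beside 2.82% of all tested genes) and none fell, with a median log2 fold change of 0.09. The 2 were the endosomal proteases Ctss and Ctsb, which rose 6.98-fold and 1.52-fold (adjusted p = 0.0242 and 0.0381). The class II promoter factor Rfx5 was at 6.80 to 12.3 CPM in Control and 7.60 to 8.74 in EAE (adjusted p = 0.772). Calls of Irf9, Hspa5, Psmb8, Ctss and Ctsb were lost in 3 to 5 of the 6 fits that left out 1 library (adjusted p up to 0.16).

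Among 6 tested genes of co-stimulation and co-inhibition only Cd274 was called. It encodes PD-L1, a ligand that restrains T cells, and was at 11.5, 12 and 3.89 CPM in Control and 52.8, 62.3 and 193 in EAE (log2 fold change of 3.49 ± 0.594, adjusted p = 0.0101). The call was lost in 1 of the 6 fits without 1 library (adjusted p = 0.0598). No class I-like gene outside the MHC was called higher. Of 3 tested, Fcgrt, the neonatal Fc receptor that also pairs with B2m, fell by 2.43 on the log2 scale, from 36.0, 34.0 and 24.8 to 6.59, 5.63 and 5.35 CPM (adjusted p = 0.00123), and Mr1 and Hfe were not called.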

How the data were processed

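RNA from tdTomato-positive spinal cord cells was measured in 6 bulk libraries. The authors deposited whole-number read counts per Ensembl gene with a gene length in base pairs (another measure, not per sample), per the file headers. Per the submitters' processing notes, the tools were FastQC, STAR, featureCounts and edgeR 3.24.3 on mm10. How multiply matching reads and strand were handled is not stated, so overlapping genes cannot be told apart. Symbols and coordinates came from GENCODE M21 (GRCm38), found for 36345 of 38293 identifiers (94.9%).

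Members and gene lists were chosen with earlier results of these data known. Genes were kept by filterByExpr (minimum count 10, minimum total 15; 16966 genes), scaled by TMM and tested by the 2-sided quasi-likelihood test of edgeR 4.0.16 in R 4.3.3, robust, without a block. Adjusted p-values were called under 0.05. CPM were computed from the counts and TMM library sizes. The SE is the log2 fold change divided by the square root of F. The biological coefficient of variation was 39.6%. Values are given for every called member, all members outside the H2- symbols and the most abundant tested member of each class; of the lists, called genes and a few preset ones, apart from some genes that are not reported here. Values of H2-T24, H2-Eb1, H2-DMa, H2-DMb1, H2-DMb2, H2-K2, H2-M10.5, H2-M10.6 and single marker genes were added after they were seen. Alternatives were DESeq2 1.42.0, other scalings, no filter, the replicate block and leaving out each library. Intervals and the floor of 3 reads (0.128 CPM) cover counting error only.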

Additional observations from a re-analysis of the deposited data

How the results depend on the processing

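Of the 30 tested members, 28 kept a log2 fold change above 0 under every alternative run. When 1 library was left out, that of H2-T24 ran from -0.02 to 0.79 and that of Tapbpl from -0.28 to 0.91, both lowest without EAE replicate 3; Tapbpl was also at 0.0 without Control replicate 2. Of all genes, 1212 were called (478 higher, 734 lower), DESeq2 called 2162 (958 higher, 1204 lower), and leaving out 1 library gave 440 to 1150 (119 to 501 higher, 321 to 750 lower). Median-ratio factors gave 1217, library sizes alone 1131 and no filter 1272. The 17 called members became 9 to 22 without 1 library, lowest without Control replicate 1 (9) and Control replicate 3 (11), highest without EAE replicate 2. They became 22 with DESeq2, 17 with median-ratio factors, 16 with library sizes alone and 14 with no filter, where Cd74, H2-Aa, H2-Ab1, H2-Q7, H2-T23 and Tap1 were lost and H2-DMa, H2-T10 and Tapbp gained. The cause of these shifts was not tested. The labels do not say whether the replicate numbers pair the samples. Same-numbered libraries correlated at 0.0157, -0.0399 and -0.0336 in their deviations from the group mean. Such a correlation over all tested genes cannot exclude a pairing that touches only some of them. Adding the number as a block lowered the SE of H2-Q7 from 0.592 to 0.233 and raised that of B2m from 0.230 to 0.259. With the replicate block 818 genes were called, 270 higher and 548 lower, and 16 members, with H2-Ab1 lost. The 22 members that did not reach the filter, 10 of them without a read, were not tested; low depth and low expression cannot be told apart for them, and H2-DMb1, with 207 reads in EAE, had none in EAE replicate 2.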
